A study of Mus musculus with 2 samples.

Results

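Heat shock proteins and their J-domain cochaperones are the genes described here. They were taken as protein-coding genes with reads in both libraries whose symbol begins with Hspa, Hspb and a digit, Hsp90 or Dnaj, or is Hspd1, Hspe1 or Hsph1. The rule found 60 genes, of 13045 protein-coding genes with reads in both libraries and 18311 known genes of any type with reads in either. By symbol they are 10 HSP70 genes, 3 HSP110 genes, 3 HSP90 genes, 2 chaperonin genes, 4 small heat shock genes, 4 Dnaja, 10 Dnajb and 24 Dnajc genes. A further 12 coding genes that match by symbol had no read in at least 1 library and are not members: Dnajb3, Dnajb7, Dnajb13, Dnajc5b, Dnajc5g, Dnajc22, Dnajc28, Hspa1l, Hspb1, Hspb2, Hspb7 and Hspb9, with 0 to 4 reads in a library.

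HSP70 proteins bind unfolded stretches of other proteins and release them in a cycle driven by ATP. J-domain proteins bring clients to HSP70 and start its ATP hydrolysis, HSP110 proteins help exchange the nucleotide, and HSP90 takes over clients that are partly folded. Hspd1 and Hspe1 form the mitochondrial chaperonin, and small heat shock proteins hold unfolded proteins without ATP. In neurons, Hspa8 with its J-domain partners strips clathrin from synaptic vesicles and keeps the proteins of vesicle fusion folded.

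Hippocampus was taken at 14 days of age from B6CASTF1/J males, a hybrid of C57BL/6J and CAST/EiJ, and its total RNA was read by long-read sequencing of cDNA. There was 1 group of 2 libraries, no treatment was named, and each library was made from 3 males pooled, with 2 µg of RNA. The sample labels call the libraries biological replicates 1 and 2 and name different males for each. The experiment-level description gives both libraries the males of replicate 1, so differences between the libraries may be technical. The counts held 821324 mouse reads in replicate 1 and 743862 in replicate 2, of which 740829 and 669121 fell on known genes. In bulk tissue, fewer cells of a type and less RNA per cell cannot be told apart. Markers of hippocampal neurons were present in both libraries (6 of 6 with reads; summed level 3195 and 3351 CPM, or reads per 1000000 mouse reads). The libraries differed in other markers: 6 of 7 tested myelin genes were called lower in replicate 2 (list total 5814 and 2896 CPM), as were the 1 tested gene of the choroid plexus list (list total 196 and 88.7 CPM), 2 of 5 tested immediate early genes (358 and 237 CPM) and 1 of 5 astrocyte genes (4022 and 3868 CPM). No microglial or blood gene was called. Over all 8875 genes tested, 1.58% were called. The part of these markers in the values of the members was not tested.

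Reads of the 60 genes made up 0.998% of the replicate 1 mouse reads and 0.971% of those of replicate 2, with Wilson 95% intervals of 0.977% to 1.02% and 0.949% to 0.994%. HSP70 genes held 34.8% ± 0.849 (SD, n = 2) of family reads and HSP90 genes 25.5% ± 0.194. The 38 Dnaj genes together held 31.2% ± 0.42, split into Dnaja at 9.01%, Dnajb at 7.93% and Dnajc at 14.3%. HSP110 genes held 4.11%, the chaperonin genes 3.87% and the small heat shock genes 0.539%. The 5 most abundant genes, Hspa8, Hsp90ab1, Hsp90aa1, Dnaja1 and Hspa5, held 56.7% ± 0.344. Levels are given in CPM without division by length, since each long read was counted once for its transcript model. Whether transcript length or amplification affected the counts was not tested.

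**Figure D1:**
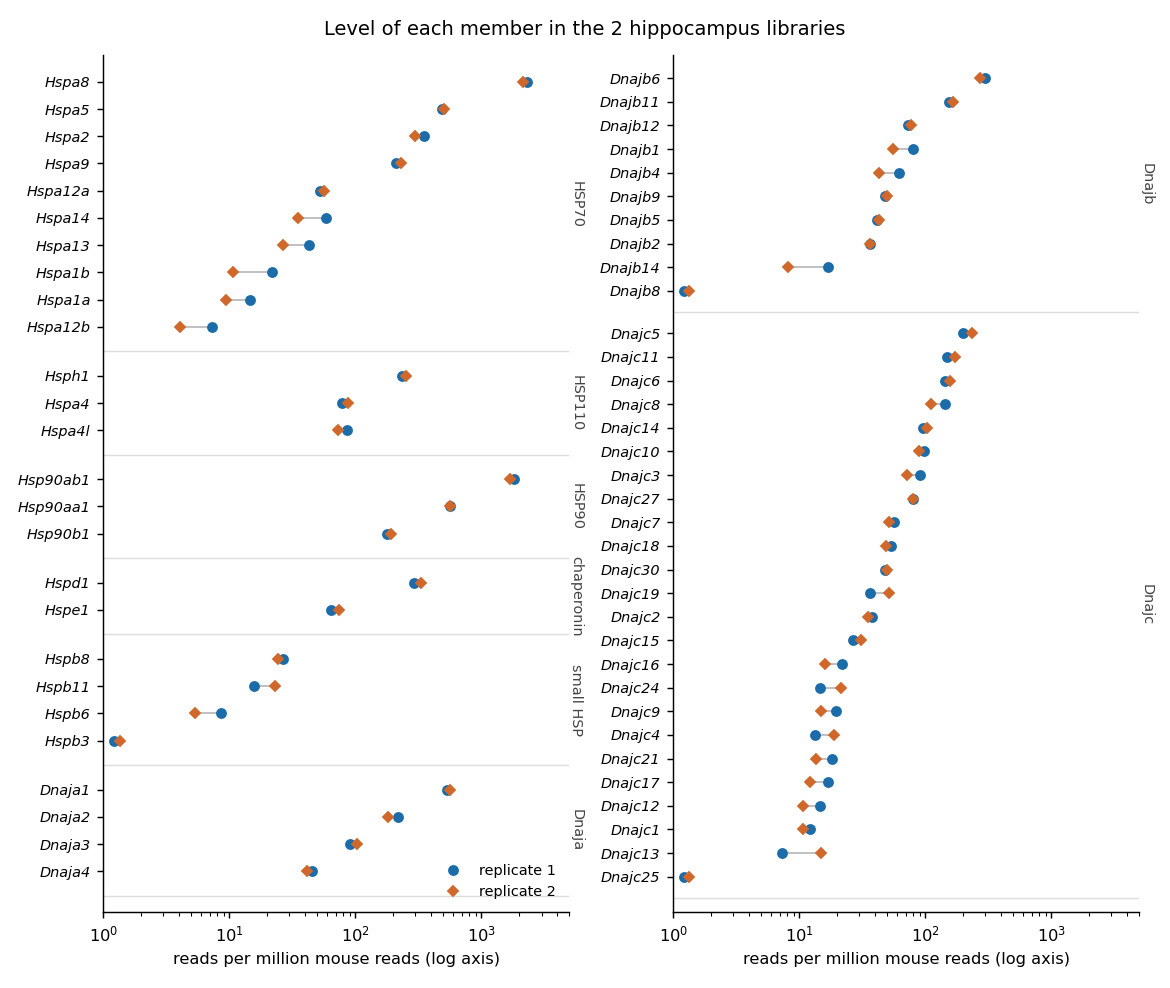
Level of each of the 60 genes in CPM on a log axis, by class, with 1 symbol for each library. Hspa8 and Hsp90ab1 stand highest in both libraries, and the space between the symbols widens toward the genes with few reads.

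**Figure D2:**
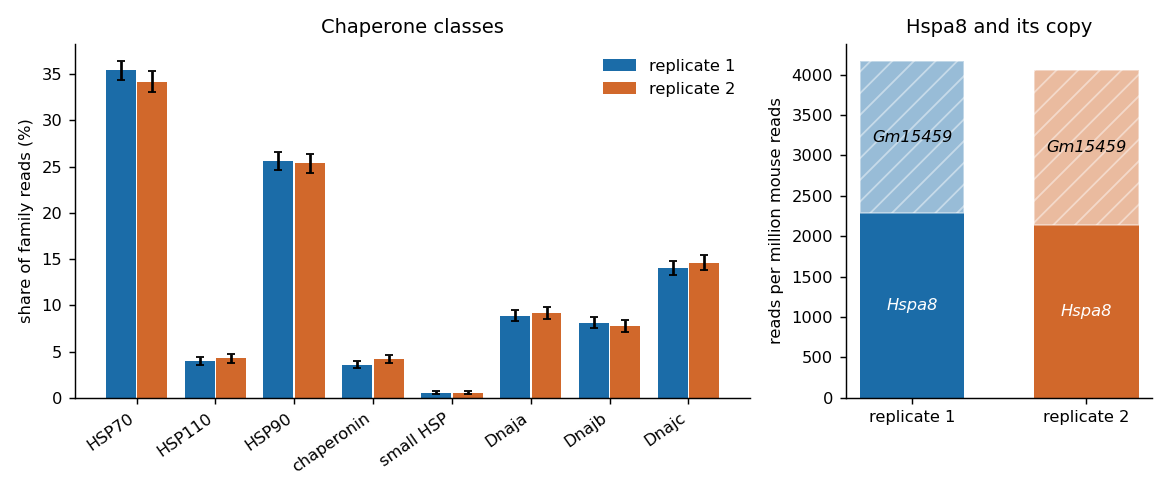
Left, share of family reads held by each class in each library, with Wilson 95% intervals; HSP70 and HSP90 are the tallest bars. Right, CPM of Hspa8 with that of its near-identical copy Gm15459 stacked above it: the sum is 4170 in replicate 1 and 4053 in replicate 2.

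Among HSP70 genes, the constitutive cytosolic Hspa8 (chromosome 9, 40800984 to 40810087, mm10) led with 2283 CPM in replicate 1 and 2144 in replicate 2. Its mean of 2214 ± 98.1 CPM was rank 15 of 14789 coding genes with reads, and it held 64.6% of HSP70 reads. Hspa5, the HSP70 of the endoplasmic reticulum also known as BiP, followed at 489 and 504 CPM. Hspa2, best known for its role in sperm development, came next at 352 and 298 CPM, nearly all in a transcript of 1 exon. Hspa9, the mitochondrial HSP70 mortalin, stood at 209 and 230 CPM. The order Hspa8, Hspa5, Hspa2, Hspa9 was the same in both libraries, and no adjacent pair overlapped.

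The stress-inducible HSP70 genes were near the low end. Hspa1b had 18 and 8 reads, or 21.9 and 10.8 CPM, and Hspa1a had 12 and 7 reads, or 14.6 and 9.41 CPM. The coding sequences of this pair are 99.5% identical, with 7 mismatches and 3 gap bases, so how their reads were split is uncertain. The Hspa8 coding sequence is 74.9% identical to that of Hspa1b. Hspa12b had 6 and 3 reads. Of the reads of Hspa12a, 41.2% came from genomic models, the class for models that overlap a gene without matching its splicing, as did 30.9% of those of Hspa13.

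Hspa8 has a near-identical copy that took almost as many reads. Gm15459 is annotated as a processed pseudogene of 1 exon on the minus strand of chromosome 5 (5781615 to 5783555, mm10). It had 1550 reads in replicate 1 and 1420 in replicate 2, which is 1887 and 1909 CPM. Its 1941 bases match the 1941 bases of the Hspa8 coding sequence, stop codon included, at all but 5 positions: G114A, C414T, C549T, G1222A and C1440T, with the Hspa8 base first and positions counted from the first base of the start codon. The first of these is printed for both genes because it tells their mm10 sequences apart in that stretch, with the differing base in capitals. The bases of CAST/EiJ at these positions were not examined.
Hspa8, chr9:40802016-40802056, plus strand: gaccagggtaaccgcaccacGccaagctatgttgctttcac
Gm15459, chr5:5783422-5783462, minus strand: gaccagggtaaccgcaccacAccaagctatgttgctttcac

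The copy took 45.3% and 47.1% of the pair's reads in replicates 1 and 2, with Wilson 95% intervals of 43.6% to 46.9% and 45.3% to 48.9%. Nearly all of its reads (1549 and 1420) were in models of 1 exon, while 1869 and 1581 of the Hspa8 reads were in spliced models. The files give counts per model and no read sequences, so whether the reads of the copy came from the pseudogene or from Hspa8 mRNA was not tested. With both added, the level is 4112 ± 82.7 CPM, which would be rank 6 among coding genes, and the family's share becomes 1.17% of mouse reads. Of the other copies that match a member at 90% identity or more over at least 50% of their length, Gm12346, a copy of Hsp90aa1, had 6 and 5 reads, and no other had over 3 in a library apart from Hspa1a and Hspa1b themselves.

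HSP90 genes were led by Hsp90ab1, the constitutive cytosolic form (chromosome 17, 45567775 to 45573271), at 1812 and 1699 CPM. Hsp90aa1, the cytosolic form that is more inducible by stress, was at 566 and 569 CPM, so Hsp90ab1 held 70% ± 1.29 of HSP90 reads and Hsp90aa1 22.6% ± 0.68. Hsp90b1, the GRP94 of the endoplasmic reticulum, was at 178 and 192 CPM. Of the HSP110 genes, Hsph1 was at 233 and 253 CPM and held 60% ± 1.75 of the class. Hspa4 (77.9 and 87.4 CPM) and Hspa4l (85.2 and 72.6 CPM) overlapped.

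The mitochondrial chaperonin Hspd1, also known as HSP60, was at 293 and 329 CPM, and its cofactor Hspe1, also known as HSP10, at 64.5 and 73.9 CPM. Hspe1 thus had 18% and 18.3% of the reads of the pair. The genes lie head to head on chromosome 1 and as annotated overlap by 112 bases, and 107 bases lie between the start of the transcript Hspd1-201 (55088024) and that of Hspe1 (55088132).

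Small heat shock genes had few reads. Hspb8, a partner of the cochaperone Bag3, had 22 and 18 reads, or 26.8 and 24.2 CPM. Hspb11, which carries a small heat shock symbol but is known as an intraflagellar transport protein (IFT25), had 13 and 17 reads. Hspb6 had 7 and 4 reads and Hspb3 1 and 1. Hspb1, the stress-inducible HSP27, had 2 and 0 reads, where a count of 0 allows up to 4.03 CPM in replicate 2.

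Among Dnaja genes, the cytosolic Dnaja1 was at 530 and 563 CPM, its relative Dnaja2 at 217 and 183, and the mitochondrial Dnaja3 at 91.3 and 104. Dnaja4 was lowest at 45 and 41.7 CPM. Dnaja1 held 61.6% ± 2.26 of Dnaja reads. Dnajb genes were led by Dnajb6, a suppressor of polyglutamine aggregation, at 296 and 273 CPM. Dnajb11, a cochaperone of BiP in the endoplasmic reticulum, followed at 153 and 167 CPM, and Dnajb12, a J protein of the membrane of that compartment, at 73.1 and 76.6. The stress-inducible Dnajb1, or HSP40, had 66 and 41 reads, or 80.4 and 55.1 CPM.

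Dnajc genes were led by Dnajc5, the cysteine string protein of synaptic vesicles (chromosome 2, 181520485 to 181555133), at 200 and 235 CPM. Next were Dnajc11, a protein of the mitochondrial membrane, at 147 and 171 CPM, and Dnajc6, the neuronal auxilin that recruits Hspa8 to clathrin coats, at 144 and 156 CPM. Dnajc5 was above both in each library, and the values of Dnajc11 and Dnajc6 overlapped. Dnajc8, a nuclear protein tied to splicing, was at 142 and 112 CPM, Dnajc14 at 95 and 104, and Dnajc10, a disulfide reductase of the endoplasmic reticulum also known as ERdj5, at 97.4 and 88.7. The other 18 Dnajc genes had mean levels from 1.28 CPM to 81.3 CPM. Dnajb8, Dnajc25 and Hspb3 had 1 read in each library.

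No member was called different between the libraries. The test was Fisher's exact test, two-sided, of a gene's share of the mouse reads in each library, and p-values were adjusted by Benjamini-Hochberg over the 8875 genes whose summed count was 20 or more. Of the 60 members 52 reached that minimum, 0 of 52 were called, and over all genes 1.58% were called. At an unadjusted p under 0.05 there was 1 member, Hspa14, a ribosome-associated HSP70, with 48 and 26 reads and an adjusted p of 0.424, against 10.3% of all genes. The only member at least 2-fold apart was Dnajb14 with 14 and 6 reads, against 3.99% of genes. The log2 ratio of replicate 2 over replicate 1 was under 0 for 27 of the 52, beside 48.5% of all genes, and its median was -0.01 for members and 0.01 for all genes. Since there is 1 group, the test compares the libraries and measures departure from counting error.

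**Figure D3:**
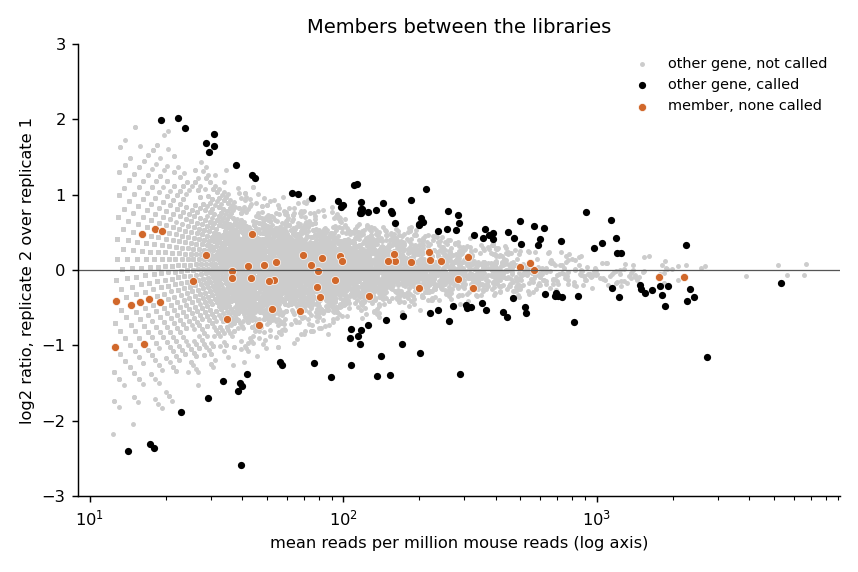
Log2 ratio of replicate 2 over replicate 1 against mean CPM (log axis) for the tested genes, members in orange and called genes in black. No member is among the called genes, and the spread of the members narrows as their level rises; 10 genes outside the range of -3 to 3, none a member, are not drawn.

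With genomic models left out, 1 member was called, Dnajc5, which then had 116 and 174 reads; its log2 ratio was 0.74 with an adjusted p of 0.00174 by Fisher's exact test, and 1.9% of all genes were called. Its last exon was counted under different classes in the libraries. In replicate 1, 46 reads were in a genomic model of 1 exon (181549326 to 181552880 on chromosome 2), and in replicate 2, 45 reads were in an incomplete splice match (181549273 to 181552880). With every class counted Dnajc5 had 164 and 175 reads and was not called.

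Reads of the family were mostly in annotated transcripts. Annotated transcripts held 83.9% ± 0.302 of family reads, compared with 71.3% ± 1.08 over all known genes. Both shares pool reads, so abundant genes weigh most. Single members differed widely, with Hspa8 at 94.6% and Dnajc6 at 21.4%. Incomplete matches, which cover part of an annotated transcript, held 7.81% (10.5% over all genes). Models that join known splice sites in a new way made up 4.16% (6.74%), models with a new splice site 1.91% (4.25%) and genomic models 2.24% (7.16%). Genomic models held over 50% of the reads of 4 members, all with few reads: Dnajb8 at 100%, Hspa12b at 66.7%, Dnajb14 at 60% and Dnajc18 at 53.8%.

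An isoform was counted where it held at least 10% of a gene's reads of annotated and new transcripts and at least 5 reads. By that rule 14 of 50 members with 20 such reads had 2 or more isoforms, 28%, beside 34.4% of 7335 coding genes. The share of the leading isoform was tested in 33 members by Fisher's exact test: 0 were called, beside 0.171% of 4684 genes, and 0 passed at an unadjusted p under 0.05, beside 3.84%.

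**Figure D4:**
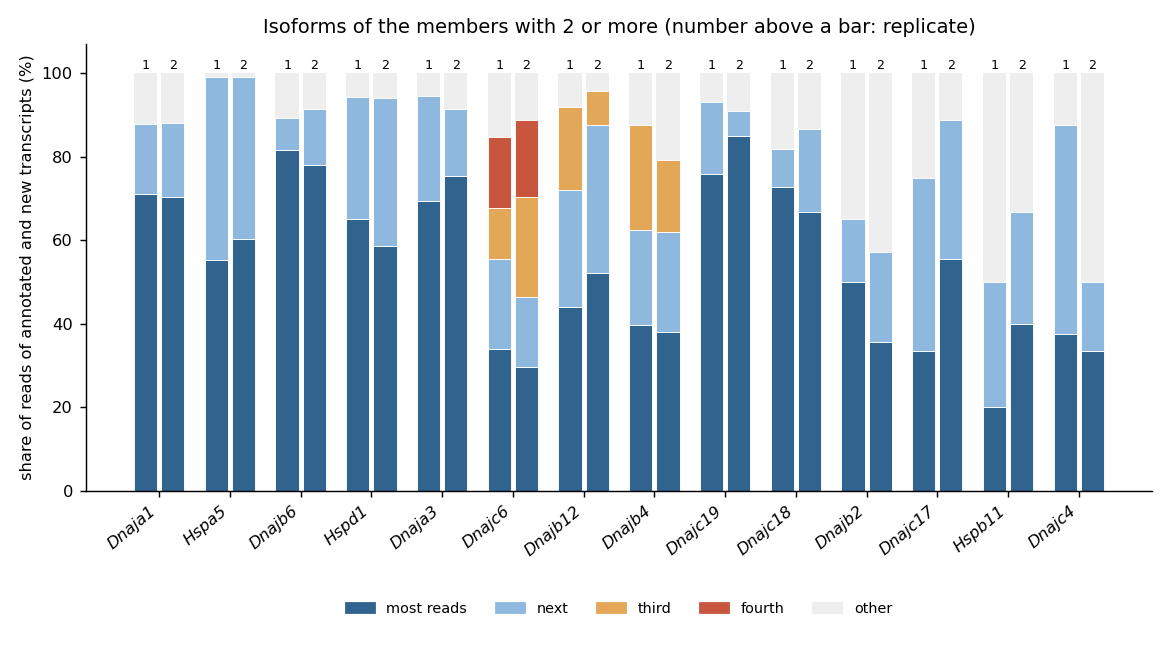
Share of each isoform that passed the rule in the 14 members with at least 2, in percent of the gene's reads of annotated and new transcripts, with a bar for each library and other isoforms in pale grey. Hspa5 and Hspd1 divide their reads between 2 isoforms in both libraries, and Dnajc6 between 4.

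Several members had isoforms that part in the first exon. Hspa5-201 held 55.2% and 60.3% of Hspa5 reads and Hspa5-202 43.8% and 38.8%. Both code for 655 residues, and in splicing they differ by an intron of 82 bases in the leader (chromosome 2, 34772147 to 34772228) that Hspa5-202 does not splice. That intron was run through by 44.2% of reads in replicate 1 and 39.1% in replicate 2, and the Wilson intervals overlap. Hspd1-201 held 65.1% and 58.6% of Hspd1 reads, and a transcript that joins known splice sites in a new way took 29.3% and 35.5%. The latter joins the same second exon to a splice donor at 55087989 in place of 55087779, and the annotated coding start lies in that second exon. Dnaja1-201 held 71% and 70.4% of Dnaja1 reads and Dnaja1-210 16.8% and 17.7%, both with 397 codons and with other first exons (donors at 40722633 and 40723136).

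Other members had isoforms that end differently. Dnaja3, the mitochondrial J protein also known as Tid1, comes in a shorter form, Dnaja3-202 with 453 codons (69.4% and 75.4% of reads), and a longer form, Dnaja3-201 with 480 codons (25% and 15.9%). An exon of 117 bases that carries 101 coding bases makes the difference. Its inclusion was 24.7% in the first library and 19.2% in the other, with Wilson 95% intervals of 16.2% to 35.6% and 11.8% to 29.7%. The ends of both forms are shown because the exon brings its own stop codon; stop codons are in capitals.
Dnaja3-201, chr16:4705844-4705960, plus strand: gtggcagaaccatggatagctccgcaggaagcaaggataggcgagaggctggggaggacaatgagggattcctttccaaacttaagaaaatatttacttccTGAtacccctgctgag
Dnaja3-202, chr16:4706568-4706590, plus strand: gaaagcggtcaactggaaacTAA

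Dnajb6 has a short form, Dnajb6-203 with 242 codons, and a long form, Dnajb6-201 with 365 codons; in human cells the short form is cytosolic and the long form nuclear. The short form held 81.5% and 78% of Dnajb6 reads and the long form 7.73% and 13.5%. The share of reads ending in the last exon of the long form was 8.58% in replicate 1 and 13.5% in replicate 2. The 2 ends are printed with stop codons in capitals. Before its printed end, the annotated long form has a further coding exon of 321 bases that is not printed.
Dnajb6-203, chr5:29766396-29766430, plus strand: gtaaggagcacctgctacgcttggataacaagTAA
Dnajb6-201, chr5:29785031-29785113, plus strand: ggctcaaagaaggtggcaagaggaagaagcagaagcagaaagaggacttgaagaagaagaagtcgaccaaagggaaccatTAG

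Dnajb12 had 3 isoforms, Dnajb12-205 with 378 codons (44% and 52.1% of reads) and Dnajb12-204 and Dnajb12-201 with 376 codons. Dnajc19-202 (116 codons) held 75.9% and 84.8% of Dnajc19 reads and Dnajc19-201 (157 codons) 17.2% and 6.06%. Dnajb2-210 (324 codons) and Dnajb2-207 (277 codons) had 10 and 5 reads and 3 and 3 reads. Dnajc18, Dnajc17, Hspb11 and Dnajc4 also passed the rule, on 20 to 37 reads each, and their shares are wide open at that depth. Dnajb4 had 3 isoforms: Dnajb4-202 held 39.6% and 37.9%, an unannotated transcript of known splice sites 22.9% and 24.1%, and Dnajb4-204 25% and 17.2%.

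Dnajc6, auxilin, was the member with most isoforms past the rule, with 4. It uses 2 first exons: the donor at 101508182 held 47.7% and 59.3% of reads and the donor at 101496763 41.5% and 35.2%. Dnajc6-204 has 900 codons and Dnajc6-201 938, both past the rule at 21.5% and 16.7% and at 12.3% and 24.1% of reads. Of 2 unannotated transcripts built from known splice sites, one took 33.8% and 29.6% and the other 16.9% and 18.5%. A 65-base exon of the leader in Dnajc6-204 was included in 63.8% of reads in replicate 1 (50.9% to 74.9%) and 49.1% in replicate 2 (36.1% to 62.1%). The unannotated transcript with most reads joins this exon to the donor at 101508182, that of the first exon printed below. Whether the exon is translated there was not tested. The coding part of the first exon of Dnajc6-201 is shown because the other first exon lacks it; the start codon is in capitals.
Dnajc6-201, chr4:101508086-101508182, plus strand: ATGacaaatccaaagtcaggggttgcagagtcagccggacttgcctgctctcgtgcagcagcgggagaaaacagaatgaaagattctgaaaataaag

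**Figure D5:**
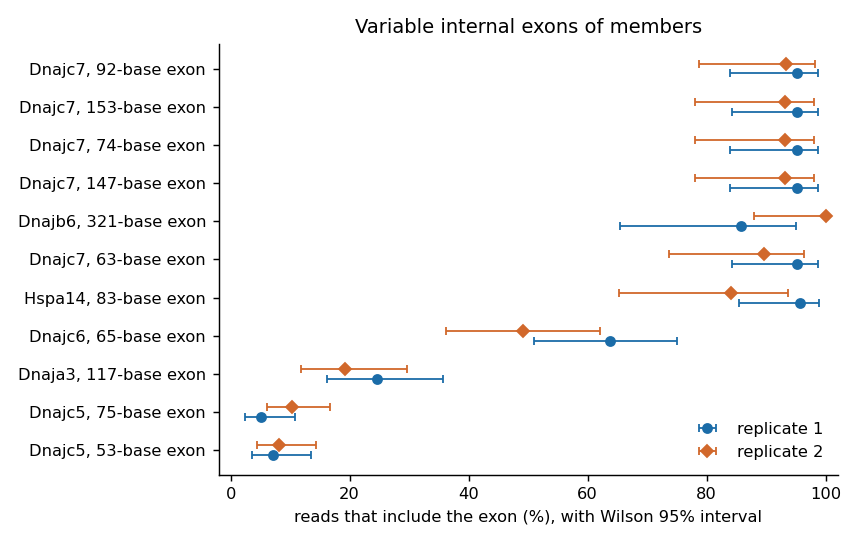
Reads that include each of the 11 variable internal exons of members, in percent with Wilson 95% intervals, for each library. The intervals of the libraries overlap for every exon, and Dnajc6 and Dnaja3 hold the exons closest to an even split.

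Of 71 internal exons of members that had at least 20 reads in each library and were skipped by at least 1 read, 11 were variable, with a mean inclusion from 5% to 95%. That is 15.5%, beside 17.3% of such exons over all genes. Fisher's exact test, run on the variable exons alone, called 0 of 11 between the libraries, beside 0.044% of 2272 exons, and 0 passed at an unadjusted p under 0.05, beside 4.23%. Dnajc7, a cochaperone of HSP70 and HSP90 with TPR repeats, held 5 of them at 92.4% to 94.2% mean inclusion, each skipped by at most 3 reads in a library. These 5 lie between 100583594 and 100589989 on chromosome 11. Whether the same reads skip several of them was not tested, so they may not be 5 separate events. Hspa14 and Dnajb6 held an exon each at 89.8% and 92.9%. The Dnajb6 exon is annotated in the long form alone. It was included by 18 reads and skipped by 3 in replicate 1, and by 28 and 0 in replicate 2. Reads of the short form end before it and are not in this percentage. Dnajc5 had 2 exons included by few reads. The 75-base exon (chromosome 2, 181548926 to 181549000) was in 5.17% of reads in replicate 1 (2.39% to 10.8%) and 10.2% in replicate 2 (6.08% to 16.7%), and is annotated in Dnajc5-204, a transcript of the nonsense-mediated decay type. Its first 30 bases are printed with the stop codon, which follows 8 coding bases, in capitals.
Dnajc5-204, chr2:181548926-181548955, plus strand: gagggcacTGAcactgtgccgagagtgttt

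Of 360 annotated introns of members with enough reads, 21 were run through by at least 5% of reads, or 5.83%, beside 6.48% of all introns. Many are annotated introns that few transcripts use: the 37-base intron of Hsp90ab1 was spliced by no read, and the 160-base intron of Hsph1 by 1 and 0 reads. Apart from the leader intron of Hspa5, no member's intron was run through by 5% to 50% of reads in both libraries with at least 100 reads in each.

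The heat shock element, where the factors Hsf1 and Hsf2 bind, is made of repeats of the letters GAA in alternating direction. RefSeq promoters of 300 bases (250 before to 50 after the start, GRCm38.p6) were found for 49 of 60 members. No entry was matched for Dnajc2, Dnajc5, Dnajc11, Dnajc12, Dnajc18, Dnajc30, Hsp90aa1, Hsp90ab1, Hspa8, Hspa9 and Hspa13. Pairs of units were searched as GAANNTTC and TTCNNGAA, which read the same on both strands. GAANNTTC was in 12 of 49 members (21.2% of their promoters, 7.86% of all 32851), and TTCNNGAA in 6 (12.1% and 8.52%). A run of 3 units (GAA, TTC, GAA or TTC, GAA, TTC, with 2 bases between units), searched on both strands, holds both shorter motifs and was in 4 members, Hspd1, Hspe1, Dnajb6 and Hsph1 (9.09% and 0.603%). The 6 promoters behind the 9.09% hold fewer sites, since Dnajb6 and Hsph1 each have 1 site that was counted in the promoters of 2 starts. These matches describe the sequence only. In Hsph1 the match lies after the start. The promoters of Hspd1 and Hspe1 share 1 site between their starts, and it is printed as the strand of each gene reads it, with the motif in capitals.
Hspe1, chr1:55088053-55088082, plus strand: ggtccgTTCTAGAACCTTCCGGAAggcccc
Hspd1, chr1:55088053-55088082, minus strand: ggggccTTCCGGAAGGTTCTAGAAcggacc
Dnajb6, chr5:29735844-29735873, plus strand: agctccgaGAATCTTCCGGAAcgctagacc
Hsph1, chr5:149636279-149636308, minus strand: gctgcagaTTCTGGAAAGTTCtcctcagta

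The factor Hsf1 had 48 and 29 reads, Hsf2 9 and 11 and Hsf4 2 and 0. Of all 60 listed partners, these factors included, 57 were tested and Fisher's exact test called 3 between the libraries, beside 1.58% of all genes. Stub1, a ubiquitin ligase that binds HSP70 and HSP90, had 307 and 197 reads (log2 ratio -0.50, adjusted p = 0.0152). Snap25, a client of the Dnajc5 complex, had 1127 and 799 reads (log2 ratio -0.35, adjusted p = 2.5e-05). Cltb, a clathrin light chain, had 276 and 333 reads (log2 ratio 0.41, adjusted p = 0.0375). None of the 8 subunits of the cytosolic chaperonin TRiC, none of 10 tested nucleotide exchange factors and none of 8 tested folding genes of the endoplasmic reticulum was called. The most abundant of these groups were Cct7 (391 CPM), Cct5 and Cct6a for TRiC, Bag1 (202), Hspbp1 and Bag6 for exchange factors, and Pdia6 (250), Canx and Xbp1 for folding. Among HSP90 cochaperones they were Stub1 (319), Fkbp4 (222) and Cdc37 (200), and 1 of 13 tested was called. Of the clathrin and vesicle partners 2 of 5 were called, led by Snap25 (1223), Cltb (392) and Clta (169). None of 6 prefoldin genes (led by Vbp1 at 154, Pfdn5 at 99.3 and Pfdn2 at 65 CPM) and none of 5 other chaperones (Sgta at 425, St13 at 149 and Clpb at 97.8) was called. Lists of 5 to 10 genes are too short to tell a count of 0 from the share over all genes.

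Of reads on the strand opposite to members, 2 members had at least 10 in each library. Dnaja1 had 23 and 17, which is 5.02% and 3.9% of reads over the locus, and Dnajc18 had 24 and 35, which is 35.3% and 49.3%.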

How the data were processed

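Per the deposited text and the values, the deposited tables hold raw read counts per transcript model and, in other columns, exon number and length; the deposited annotation files give exon positions on mm10 with GENCODE M21. Aligner, caller and versions: not given in the sources used here. Each model carries the authors' class (annotated, incomplete, new combination, new splice site, genomic, antisense, intergenic).

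Reads were summed per known gene. CPM is reads over mouse reads of the library (821324 and 743862), spike-in reads left out, times 1000000. A count of 0 allows 3 reads, 3.65 CPM in replicate 1 and 4.03 in replicate 2. Ratios add 0.5 reads. Wilson intervals (95%) and floors cover counting error only. Tests were Fisher's exact tests in SciPy 1.17.1 (Python 3.11.15) with Benjamini-Hochberg adjustment at 0.05, checked on simulated data; TMM sizes came from edgeR 4.0.16 and copies from minimap2 2.31. Exon inclusion and leading-isoform tests need 20 reads in each library. Members named are the 20 most abundant, the 3 most abundant of each class, those called, those with a further isoform past 10%, and those with few reads; other names were chosen after their values were seen. The members and lists were chosen with earlier results of these data known. Alternatives changed read minimums, classes, library sizes and thresholds, and left out each library. The protein motifs HPD, EEVD and KDEL were not analysed here.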

Additional observations from a re-analysis of the deposited data

Results flagged for a closer look

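The pseudogene Gm15459 had 2970 reads over both libraries, outside the members. Reads on the strand opposite to Dnaja1 came to 40 and opposite to Dnajc18 to 59 over both libraries. These 2 members were listed because they had at least 10 such reads in each library. The origin of these reads was not tested.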

How the results depend on the processing

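No paired analysis was possible because there is 1 group of 2 libraries. The count of members called between the libraries was 0 with a minimum of 10 reads, no minimum, TMM sizes and annotated transcripts alone, and 1 with genomic models left out (Dnajc5, whose last exon has a different class in each library). No leading isoform and no variable exon of a member was called under any alternative run. The family's share of mouse reads was 1.29% with annotated transcripts alone, 1.03% without genomic models and 1.17% with the reads of Gm15459 added, an alternative chosen after the data were seen. In the first 2 of these, the mouse reads of the library were cut to the same classes. Members with at least 2 isoforms, 14 as reported, were 18 at an isoform share of at least 5%, 9 with annotated transcripts alone, and 8 to 9 with a library left out. Variable exons were 18 with a minimum of 10 reads and 3 with inclusion from 10% to 90%. Of 33 named levels, annotated transcripts alone moved 29 by at least 1 SD of the libraries, Hspa8 to 3260 CPM. Some orders changed: Hspa5 (749 CPM) and Dnaja1 (712) then stood above Hsp90aa1 (569), and Dnajb6 (396) above Hspd1 (276). By over 1.5 times, 6 levels moved. Of these, Hspa5 and Hspa2 rose, and Dnajc6, Dnajc18, Dnajc4 and Dnajc17 fell. Hspa2 kept all of its reads and rose from 325 to 506 CPM, since it was divided by fewer mouse reads. TMM sizes moved 0, and the copy's reads moved Hspa8 by 1.86 times. With 2 libraries, a value with either left out is always within 1 SD of the mean. Depth limits genes under about 20 reads, where shares and ratios cannot be resolved.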
